A study of Mus musculus with 9 samples.

Results

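Integrin CD41 and 3 proteins that act with integrins at the platelet membrane were followed through 9 bone marrow libraries by their genes Itga2b, Fermt3, Rap1b and Zyx. The 4 genes were taken by name from a table of 2402 genes, and all 4 reached 10 normalized counts in 2 or more libraries, a filter that 2341 genes passed. The labels describe 9 samples from male C57BL/6 mice in 4 groups: Tom+ megakaryocyte progenitors (MkP) of old mice in 2 samples, GFP+ MkP of old mice in 2, Tom+ haematopoietic stem cells (HSC) of old mice in 2, and GFP+ MkP of young mice in 3. Old mice were 18 to 20 months of age by the sample label, and 20 by the growth protocol, and young mice were 3 months. All mice carried Flt3-cre and the mTmG reporter, in which Cre, once made in a cell or its ancestors, turns the red label (Tom) into the green one (GFP) for good, so the colour reports past Flt3 promoter activity and not the present state. MkP were sorted as lineage-negative cKit+ Sca1- CD150+ CD41+ cells, and HSC as lineage-negative cKit+ CD150+ Flk2- cells with a Sca1 gate that the labels mark with both signs. Whether animals were pooled is not stated.

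The 9 rows of the table carry no sample names, so no library could be given to a group and no comparison of age, reporter colour or cell type was made. The numbers 1 to 9 used for the libraries are their row numbers and imply no order. The table's genes had 1790670 to 4373460 reads per library. A gene is called measured where it is among the 2402 genes of the table. How these were chosen is not given in the sources used here, so absence from the table says nothing of a gene's level. Of 11 megakaryocyte markers, 8 were measured, CD41 among them. Their summed level was 3250 normalized counts in library 3, 9022 in library 4 and 78650 to 150345 in the other libraries. Itga2b was the largest member of this sum in every library, so the sum is not independent of the CD41 values below. It made up 1616 of the sum in library 3, 6543 in library 4 and 45798 to 77883 in the others. Of 14 HSC markers, 11 were measured, with a sum of 52250 in library 3, 45818 in library 4, 13350 in library 8 and 1884 to 4267 elsewhere. Trim47 was the largest member of that sum in every library and made up 9887 of it in library 8. Ly6a, which encodes the Sca1 antigen of the sort, had 4256 normalized counts in library 3, 5772 in library 4 and 21.0 to 187 in the others. The part of cell composition in the results was not tested. In bulk libraries such as these, fewer cells of a type and less of a transcript per cell cannot be told apart.

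Itga2b encodes the alpha chain of the platelet fibrinogen receptor, an integrin that megakaryocytes and platelets carry at very high density and that rests in a closed, low-affinity form. Agonist receptors of the platelet load the small GTPase Rap1 with GTP, and Rap1 brings talin to the short tail of the integrin's beta chain. Kindlin-3, the product of Fermt3, binds the same tail and is needed together with talin to open the receptor, and people without it bleed and have integrins that cannot be activated. Rap1b is the main Rap1 form of platelets. Zyxin, the product of Zyx, is a LIM-domain protein that collects at adhesion sites and along tense actin fibres downstream of the integrin.

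The promoters of the 4 genes are shown because their transcripts were lowest in the same libraries while their sizes of difference were unlike. Each window runs from 250 bases before to 50 bases after the gene's start in RefSeq (GRCm38.p6), 5′ to 3′ on the strand of the gene. Capitals mark matches, on either strand, to a GATA motif (AGATAA, the same with T as its first base, with G as its last, or with both), an ETS motif (AGGAAG or CCGGAA), a RUNX motif (TGTGGT) or a cyclic AMP response element (TGACGTCA). No match overlapped another.
Itga2b, chr11:102469834-102470133, minus strand: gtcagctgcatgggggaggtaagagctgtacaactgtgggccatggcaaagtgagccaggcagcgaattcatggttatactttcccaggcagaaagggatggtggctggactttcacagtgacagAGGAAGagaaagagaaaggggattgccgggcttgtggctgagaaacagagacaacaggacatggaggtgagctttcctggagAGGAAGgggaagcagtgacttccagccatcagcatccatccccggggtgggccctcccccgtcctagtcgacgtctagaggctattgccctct
Fermt3, chr19:7019420-7019719, minus strand: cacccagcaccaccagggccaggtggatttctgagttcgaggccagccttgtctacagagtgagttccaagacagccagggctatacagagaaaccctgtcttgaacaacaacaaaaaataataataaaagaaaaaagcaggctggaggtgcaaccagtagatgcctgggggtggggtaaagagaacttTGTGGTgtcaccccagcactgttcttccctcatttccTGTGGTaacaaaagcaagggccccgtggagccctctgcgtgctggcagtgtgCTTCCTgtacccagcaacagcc
Rap1b, chr10:117845925-117846224, minus strand: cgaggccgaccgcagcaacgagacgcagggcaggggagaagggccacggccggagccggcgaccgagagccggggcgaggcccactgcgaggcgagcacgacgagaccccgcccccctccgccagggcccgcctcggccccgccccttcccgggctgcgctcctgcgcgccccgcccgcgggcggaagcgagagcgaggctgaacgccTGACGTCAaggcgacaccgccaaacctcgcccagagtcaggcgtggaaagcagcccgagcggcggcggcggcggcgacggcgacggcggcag
Zyx, chr6:42349578-42349877, plus strand: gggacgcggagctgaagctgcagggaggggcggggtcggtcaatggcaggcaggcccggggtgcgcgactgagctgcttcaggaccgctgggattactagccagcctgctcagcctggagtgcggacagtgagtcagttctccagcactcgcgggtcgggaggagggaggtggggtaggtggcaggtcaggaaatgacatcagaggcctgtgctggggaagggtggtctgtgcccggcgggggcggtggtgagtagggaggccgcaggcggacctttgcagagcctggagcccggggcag

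The Itga2b window held 2 ETS matches, and the Fermt3 window held 1 ETS and 2 RUNX matches. Among 32851 RefSeq promoter windows of the same length, 45.2% held the ETS motif and 16.8% the RUNX motif. The Rap1b window held 1 cyclic AMP response element, a motif found in 1.79% of windows. No GATA match lay in any of these 4 windows, against 29.8% of all windows, and the Zyx window held none of the motifs. In the GENCODE M21 annotation Itga2b begins at 102470122 and Zyx at 42349630. Most of the windows of these 2 genes thus lies inside the gene by that annotation, and bases before those starts were hardly searched. The windows also differed in base composition. Rap1b had 78.0% G and C with 48 CpG dinucleotides and Zyx 68.3% with 18, whereas Itga2b had 56.0% with 6 and Fermt3 52.3% with 3, beside medians of 52.7% and 7 over all windows. Letters that match a motif do not show that a factor binds there.

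Itga2b had the most normalized counts of any gene of the table in 7 of the 9 libraries and ranked lower in libraries 3 and 4. These ranks are not corrected for gene length. In library order 1 to 9 it had 76148, 60607, 1616, 6543, 68842, 69704, 77883, 68308 and 45798 normalized counts. Libraries 3 and 4 were low, and no library lay between 6543 and 45798. Itga2b ranked 345th of 2402 genes in library 3 and 65th in library 4. The highest library, 7, had 48.2 times the level of the lowest, 3, with an exact counting interval of 45.7 to 50.9 at 95%, which covers counting error only. Library 3 decided this size, since without it the ratio was 11.9. Libraries 3 and 4 were themselves unlike, with 4.05 times as much Itga2b in library 4 as in library 3 (interval 3.82 to 4.30). By reads, Itga2b took 2.37% of the table in library 8 (Wilson interval 2.35% to 2.39%), the largest share, and 0.0765% in library 3 (0.0726% to 0.0807%), the smallest. The gene lies on chromosome 11 from 102453297 to 102470122 on the minus strand (mm10, GENCODE M21), and its exons together cover 5454 bases.

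By normalized counts Rap1b was second to Itga2b in each of the 7 libraries where Itga2b came first, and 62nd in both library 3 and library 4. It had 47372, 54878, 5628, 6624, 57303, 57019, 68694, 38147 and 36599 normalized counts in libraries 1 to 9. The lowest values were again in libraries 3 and 4, followed by libraries 9 and 8 at a much higher level. The ratio of library 7 to library 3 was 12.2 (interval 11.8 to 12.6), and libraries 4 and 3 differed by only 1.18 times (1.13 to 1.22). Rap1a, the other Rap1 gene, had a narrower spread, from 1034 in library 4 to 2354 in library 6. Per kilobase of exon, Rap1b stood 19.8 to 27.6 times above Rap1a in 7 libraries, but 4.49 times in library 3 and 5.79 times in library 4. The 2 genes are close in sequence, and how the authors counted reads shared between them is not given in the sources used here. Rap1b lies on chromosome 10 from 117813871 to 117846035, minus strand, with 2884 bases of exon.

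Fermt3 varied much less than either gene and stayed abundant in every library. Its normalized counts were 27534, 26339, 9269, 11817, 28520, 28969, 34141, 27308 and 25004 in libraries 1 to 9. Libraries 3 and 4 were lowest, but kindlin-3 transcripts still ranked 30th and 26th of 2402 genes there. Library 7 exceeded library 3 by 3.68 times (interval 3.59 to 3.78), or 2.89 times when library 3 was left out and library 4 was lowest. The 7 libraries other than 3 and 4 lay within 1.37 times of each other, the tightest of the 4 genes. Fermt3 lies on chromosome 19 from 6998958 to 7019469, minus strand, with 5784 bases of exon, of which 89 at its 3′ end also belong to Trpt1 on the opposite strand.

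Zyx had nearly the same overall range as Fermt3 but another order of libraries. It had 28931, 28508, 11114, 9585, 30164, 29485, 35231, 20186 and 19462 normalized counts in libraries 1 to 9. Library 4 was lowest here, not library 3, with 0.862 times the level of library 3 (interval 0.837 to 0.888), and the ratio of library 7 to library 4 was 3.68 (3.58 to 3.77). Under median-of-ratios scaling library 3 was the lower of the pair, with 5840 against 6097 in library 4. Libraries 8 and 9 were the next lowest. Zyx lies on chromosome 6 from 42349630 to 42360213, plus strand, with 5390 bases of exon. Of these, 1447 lie inside the span of Epha1 and 771 inside that of an unnamed antisense gene, both on the opposite strand and not analysed here, and whether the authors' counting used strand is not given in the sources used here.

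**Figure D1:**
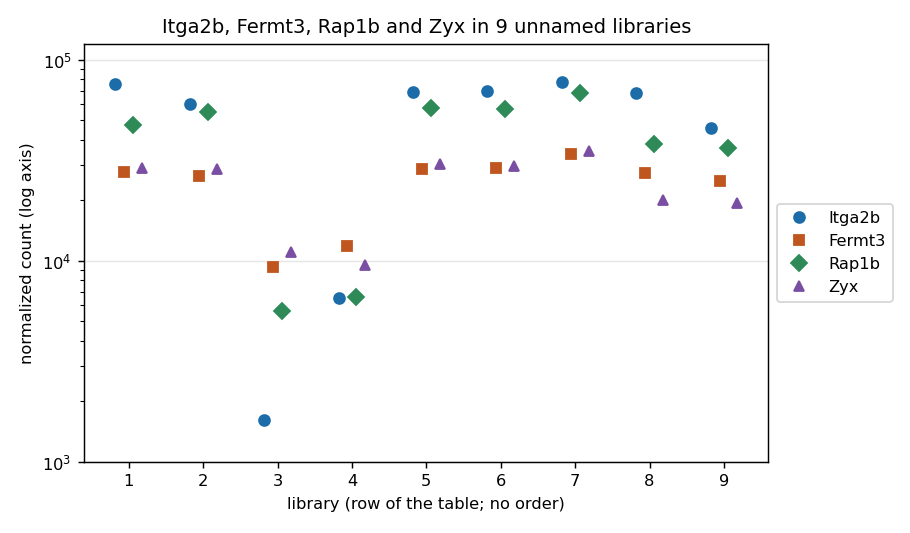
Normalized counts (log axis) of the 4 genes in libraries 1 to 9, 1 point for each gene and library, with points set apart sideways so that none hides another. Libraries 3 and 4 hold the lowest values of every gene, with Itga2b at 1616 in library 3 against 9269 for Fermt3, and the other libraries hold Itga2b between 45798 and 77883.

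Each gene was highest in library 7 as deposited. The 2 lowest values of each were in libraries 3 and 4 as deposited, after scaling to the table total and after median-of-ratios scaling. Under scaling to the table total the top library became library 8 for Itga2b and Fermt3, library 2 for Rap1b and library 1 for Zyx, while under median-of-ratios scaling library 7 was again highest for each gene. Some neighbours in the order of libraries agreed within counting error. These were libraries 5 and 8 for Itga2b, libraries 6 and 5 and libraries 1 and 8 for Fermt3, libraries 5 and 6 for Rap1b, and libraries 6 and 1 and libraries 1 and 2 for Zyx. All other neighbours differed beyond counting error, which says nothing of the spread between animals.

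Of the 4 genes, Itga2b and Rap1b had a range of at least 4-fold over the 9 libraries and Fermt3 and Zyx did not. Such a range was common in this table, being reached by 66.4% of the 2341 genes. A range as wide as that of Itga2b or wider was found in 13.1% of the genes, as wide as that of Rap1b in 32.3%, as wide as that of Fermt3 in 70.3% and as wide as that of Zyx in 70.4%. Without libraries 3 and 4, where 20.8% of genes had a 4-fold range, the ratios were 1.70 for Itga2b, 1.37 for Fermt3, 1.88 for Rap1b and 1.81 for Zyx, and none of the 4 reached 4-fold. The order of the genes by spread therefore differed, Itga2b being the widest over 9 libraries and Rap1b over 7.

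The balance between the integrin and its partners was compared within each library, where the scaling cancels, and per kilobase of exon. The length was that of all annotated exons together, not of the isoforms in use. Which of 2 genes is higher therefore turns on that length where a ratio is near 1, here and below. Comparing 1 ratio between libraries does not depend on the annotated length. Fermt3 had 0.341 to 0.515 times the level of Itga2b in the 7 libraries other than 3 and 4. It had 1.70 times the level of Itga2b in library 4 and 5.41 times in library 3. Zyx showed the same turn, with 0.299 to 0.476 times in those 7 libraries, 1.48 times in library 4 and 6.96 times in library 3. Rap1b was above Itga2b per kilobase everywhere, by 1.06 to 1.71 times in the 7 libraries, 1.91 times in library 4 and 6.59 times in library 3. In library 3 the integrin was thus the least abundant of the 4 per kilobase, at 296 normalized counts per kilobase, beside 1603 for Fermt3, 1951 for Rap1b and 2062 for Zyx. In library 7 the same quantity was 14280 for Itga2b, 5903 for Fermt3, 23819 for Rap1b and 6536 for Zyx.

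**Figure D2:**
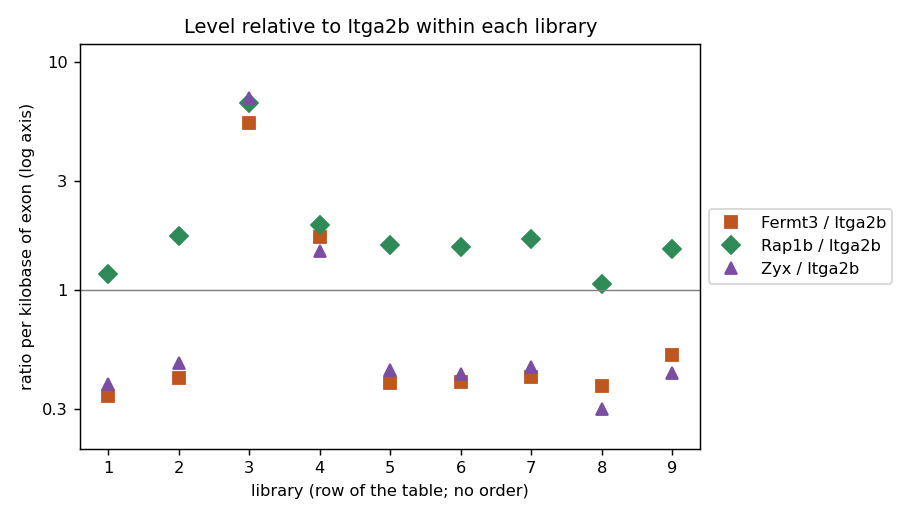
Level of Fermt3, Rap1b and Zyx relative to Itga2b in each library, per kilobase of exon on a log axis, with a line at equal levels. Fermt3 and Zyx lie below the line except in library 4 (1.70 and 1.48) and library 3 (5.41 and 6.96), and Rap1b lies above it in all 9 libraries.

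Over the 9 libraries, ratios among the partners moved less than those to the integrin, by 1.62 to 3.85 times against 6.24 to 23.3 times. This rested on libraries 3 and 4. Over the other 7 libraries the spreads were alike, apart from a narrower one for Zyx over Rap1b. Rap1b stood at 2.80 to 4.18 times Fermt3 per kilobase in those 7 libraries, 1.12 times in library 4 and 1.22 times in library 3. Zyx stood at 0.274 to 0.327 times Rap1b per kilobase in 7 libraries, whereas it was 0.774 times in library 4 and 1.06 times in library 3. Zyx over Fermt3 stayed between 0.793 in library 8 and 1.29 in library 3, the narrowest ratio of all pairs with a 1.62-fold spread. Libraries 8, 9 and 4 had less Zyx than Fermt3 per kilobase and the other 6 had more. Together the 4 genes took 4.01% to 5.44% of the table's reads in 7 libraries, 1.47% in library 4 and 1.31% in library 3.

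**Figure D3:**
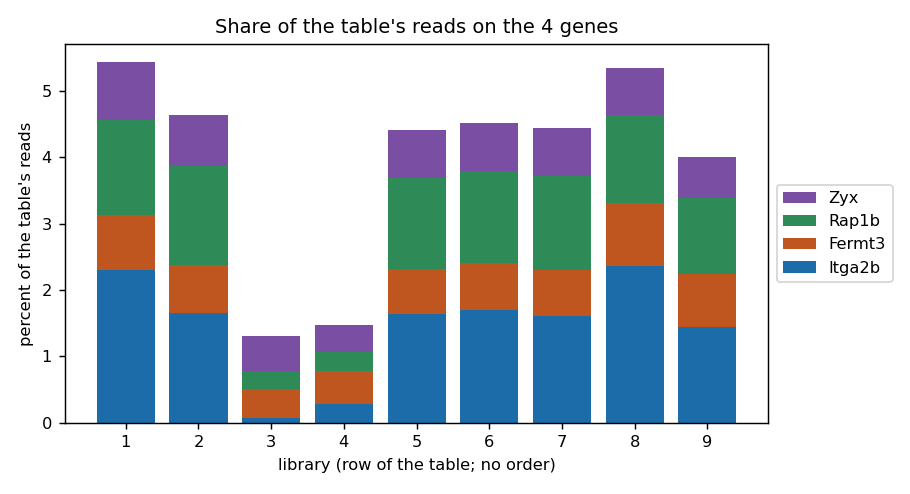
Percent of the reads of the table on each of the 4 genes, stacked, in libraries 1 to 9. The stack reaches 5.44% in library 1 and 1.31% in library 3, where Itga2b takes 0.0765%.

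Of the other integrin subunits, 4 of the 25 on the list besides Itga2b were in the table, and these 4 were scarce. The level of the subunits outside the table is not known. Itga6, the laminin receptor subunit of stem cells and platelets, had 16.8 in library 6 and at most 77.9 normalized counts, in library 3. Itga3, another laminin receptor subunit, was at 0 in 5 libraries and reached 22.4 in library 3. Itgal, the alpha chain of the leukocyte integrin LFA-1, stayed at or below 25.5, and Itgb5 at or below 5.89, too low to pass the filter. A count of 0 allows 2.17 to 5.89 normalized counts, depending on the library. Itgb3, the beta chain that pairs with CD41, and the integrin's ligands were not analysed here.

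Genes that switch Rap1 on and off did not share 1 pattern. Rasgrp2, the calcium-driven exchange factor that loads Rap1 in platelets, had 484 normalized counts in library 3, 440 in library 4 and 2034 to 3594 elsewhere, an 8.16-fold ratio of highest to lowest (interval 7.32 to 9.11). Rasgrp4, an exchange factor of the same family that is not taken here to act on Rap1, ran from 339 in library 3 to 949 in library 7. In contrast Rap1gap, which switches Rap1 off, was highest in library 3 with 105 and in library 4 with 41.2, was next highest in library 8 with 35.6, and had as little as 5.43 in library 5. Rapgef3, the exchange factor that cyclic AMP turns on, was also highest in library 3, with 168, and was 13.8 in library 7. Adaptors that read active Rap1 had their highest value in library 3 as well, as had 44.0% of all genes. Rassf5, also known as RAPL, reached 1617 there and was 395 to 734 outside libraries 3 and 4, and Apbb1ip, also known as RIAM, ran from 23.0 to 88.5. All 10 measured genes of the 30 on this list passed the filter, and library 3 held the highest value of 4 of them. A 4-fold range was reached by 6, beside 66.4% of all 2341 genes. The median range was 4.37-fold beside 6.16-fold over all genes.

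Dok1 and Dok2, adaptors of which Dok1 is known to compete with talin for the integrin tail, went opposite ways in libraries 3 and 4. Dok1 was highest there, with 2975 normalized counts in library 4 and 2200 in library 3, and had 850, in library 6, to 1692 in the others. Dok2 was lowest in libraries 4 and 3, with 1396 and 1599, and reached 8921 in library 7. Of all genes, 12.2% were highest in library 4 and 5.77% were lowest there. They were the only measured genes of the 13 on the list of inhibitors and regulators.

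Among linkers between integrin and actin, 9 of 36 were measured and 5 had a 4-fold range, beside 66.4% of all genes, with a median range of 5.68-fold, beside 6.16-fold. Lims1, the adaptor PINCH1 that joins integrin-linked kinase, had 513 normalized counts in library 3, 713 in library 4 and 5428 to 7596 elsewhere, a ratio of 14.8 (interval 13.4 to 16.4). Its partner Ilk spread only from 2766 in library 3 to 6484 in library 7, a ratio of 2.34 (2.23 to 2.47). Rsu1, which binds PINCH1, ran from 1682 in library 4 to 10367 in library 7. The complex's transcripts thus had unequal ranges. Actn4, an actin crosslinker, ran from 5307 to 14681. Pdlim1 and Pdlim2, both LIM proteins of actin fibres, had their highest values in these libraries, 2780 in library 4 for Pdlim1 and 521 in library 3 for Pdlim2. Of signals downstream of the open integrin, 6 of 32 genes were measured. The tyrosine kinase Syk had 57.8 in library 3, 61.8 in library 4 and 232 to 464 elsewhere, and Fyb, an adaptor also known as ADAP, ran from 1072 in library 3 to 3522 in library 1. Pik3r1, a regulatory subunit of phosphoinositide 3-kinase, was highest in library 3 with 1377, followed by 344 in library 4, and its lowest value was 51.1. Ptpn1, a phosphatase that acts on Src kinases in platelets, had the narrowest range of the list, 1.62-fold.

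Receptors and signals that start integrin activation had wide ranges in this table. All 9 that were measured, of 29 on the list, had a 4-fold range, beside 66.4% of all genes. Their median range was 28.8-fold beside 6.16-fold over all genes. The size rested partly on library 3, without which the median range was 18.0-fold. Without it 8 of 9 had a 4-fold range, beside 1108 of 2212 genes of the table. Gp1ba, Gp1bb, Gp5 and Gp9 of this list are also among the megakaryocyte markers summed above. Their ratios of highest to lowest library were 24.7, 92.0, 77.6 and 9.37. The ratio was 32.3 for F2r (interval 27.9 to 37.5) and 477 for F2rl2 (273 to 923), which had only 12 reads in its lowest library, 3. P2ry1, an ADP receptor, had 15.3 normalized counts in library 3, 25.2 in library 4 and 192 to 470 elsewhere. Tbxa2r, the thromboxane receptor, had the narrowest range of the list, from 883 in library 3 to 4020 in library 9. Orai1, the calcium channel of store-operated entry, was the only one of the list with its highest value in library 3, at 623, and it was 64.0 in library 1. Without libraries 3 and 4 the count was 1 of 9, beside 20.8% of all genes, and the median range 2.49-fold, beside 2.32-fold.

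Over all lists together 47 of 194 genes were measured and 46 passed the filter, of which 33 (71.7%) had a 4-fold range, close to the 66.4% of all genes. The place of the extreme values differed more from the table than their size. Library 4 held the lowest value of 11 of the 46 genes (23.9%), against 5.77% of all genes, and library 3 held the lowest value of 19 (41.3%), against 36.6%. A tie was counted for the lower row number, so a gene at 0 in both libraries 3 and 4 never counted for library 4. This lowered the share of library 4 over all genes. Some of the 11 were also near-ties, such as Actn1 with 9.15 in library 4 and 9.44 in library 3. Library 3 held the highest value of 9 (19.6%), against 44.0% of all genes, and library 7 of 14 (30.4%), against 24.8%. Scaling changed these shares. Under median-of-ratios scaling library 4 held the lowest value of 5 of the 46 genes (10.9%), against 3.33% of all genes, and library 3 of 27 (58.7%), against 40.2%. Under scaling to the table total library 7 held the highest value of 4 (8.70%), against 7.35% of all genes, and library 3 of 11 (23.9%), against 48.8%.

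**Figure D4:**
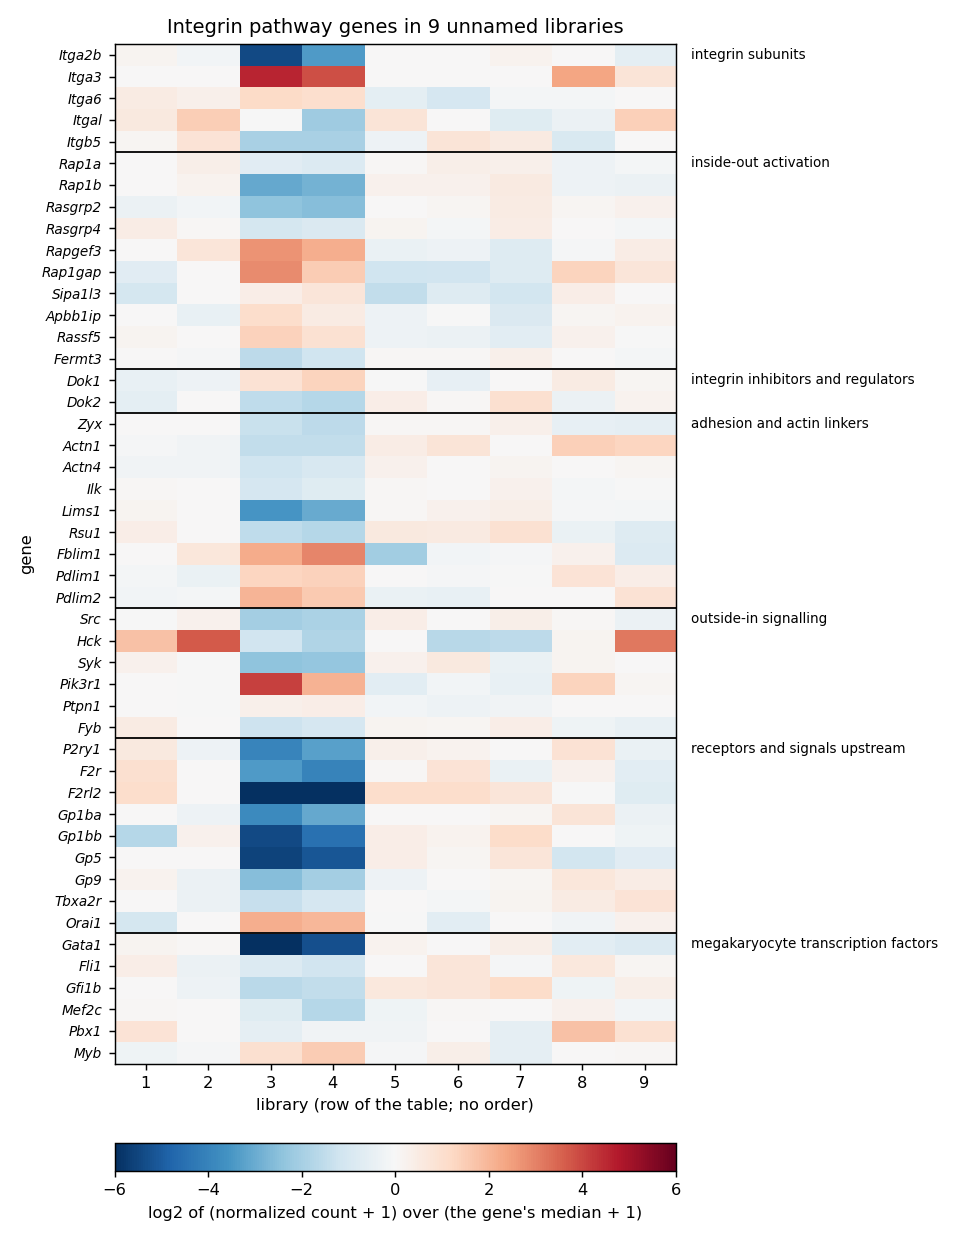
Log2 of the normalized count plus 1 over the gene's median plus 1, for the 47 measured genes of the lists (rows) in libraries 1 to 9 (columns), with blue below and red above the median and colours saturating at 6. Libraries 3 and 4 hold the strongest colours, blue for Itga2b, Rap1b, Lims1 and most receptors, and red for Rapgef3, Rap1gap, Rassf5, Pdlim2, Pik3r1 and Orai1.

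Transcription factors of megakaryocytes were listed beside the integrin, and 6 of 18 were measured. Gata1, a factor needed for megakaryocyte and red cell maturation, had 7189, 6599, 37.8, 165, 7422, 6364, 8053, 4170 and 3626 normalized counts in libraries 1 to 9. As for Itga2b, library 4 was several times above library 3 and both were far below the rest. Fli1, an ETS factor of the lineage, had a much narrower range, from 1661 in library 4 to 6091 in library 6, and Gfi1b, a repressor that acts with Gata1 in this lineage, ran from 1157 in library 3 to 7593 in library 7. Mef2c had 3889 in library 4 and 15070 in library 8. Myb, a factor of immature progenitors, was highest in library 4 with 1032 and lowest in library 7 with 246.

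Genes with the most similar pattern over the 9 libraries were named by Pearson correlation of log2 values with a pseudocount of 1. For Itga2b they were Mfsd2b (r = 0.994), Gata1 (0.994), Reep4 (0.990), Kcna3 (0.989) and Sla (0.989). For Fermt3 they were Trpt1 (0.996), Reep4 (0.993), Ppif (0.993), F10 (0.992) and Lims1 (0.992). For Rap1b they were Hmgb3 (0.997), Gp5 (0.997), F10 (0.994), Pf4 (0.993) and Ckap2l (0.993). For Zyx they were Mrvi1 (0.988), Dpf2 (0.988), Gcsam (0.986), Rgs10 (0.986) and Cd9 (0.983). Such values were common, since 7.48% of 2340 genes had r of at least 0.95 with Itga2b, 9.79% with Fermt3, 11.0% with Rap1b and 4.62% with Zyx, and the points share libraries and their scaling. Over the 7 libraries other than 3 and 4, r of the 5 genes named for Itga2b was 0.510 to 0.787. It was 0.859 to 0.913 for those of Fermt3, 0.843 to 0.976 for those of Rap1b and 0.920 to 0.971 for those of Zyx. Of all genes, 0 reached 0.95 with Itga2b over these 7 libraries, 2 with Fermt3, 45 (1.92%) with Rap1b and 36 (1.54%) with Zyx.

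Trpt1, a tRNA phosphotransferase gene, shares its last bases with the end of Fermt3, and reads of the shared stretch cannot be told apart without strand. It had 1780, 1778, 587, 788, 1721, 1808, 2154, 1623 and 1541 normalized counts in libraries 1 to 9, a ratio of 3.67 between library 7 and library 3 (interval 3.31 to 4.07), next to 3.68 for Fermt3. Rgs10, a regulator of G protein signalling in platelets, had 3649, 2073, 17.7, 28.6, 3725, 3270, 4354, 579 and 533 normalized counts in the same order. It was low in libraries 3 and 4 and next lowest in libraries 9 and 8, the order that Zyx also had at its low end apart from the place of libraries 3 and 4. Gp5, a membrane glycoprotein of the GPIb complex, had 189 in library 3, 259 in library 4, 4245 in library 8, 5685 in library 9 and 8982 to 14639 in the rest.

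Among the 4 genes themselves the likeness over 9 libraries ran from r = 0.886 for Itga2b with Zyx to 0.987 for Fermt3 with Rap1b. Over the 7 libraries other than 3 and 4 it was highest for Rap1b with Zyx, at 0.965, and between 0.621 and 0.787 for the other pairs. In those 7 libraries Rap1b and Zyx were both lowest in libraries 9 and 8, while Itga2b in library 8 stood at 68308, its median over all 9 libraries.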

How the data were processed

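Sorted bone marrow cells gave RNA through Trizol, and a NEBNext Ultra kit served for the libraries, per the labels' protocols. The submitters' processing notes name mm10, Bowtie2, STAR and DESeq without roles or versions. The authors deposited a signal, normalized counts with 1 scale factor for each library, in 1 table whose 9 rows have no sample names. Not given in the sources used here are the counting tool, its use of strand, the scaling and how the 2402 genes were chosen. No row was given a group, also not by its Ly6a level, so age, colour and cell type were not compared and n per group, means and SDs are not given.

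Values in a row were whole multiples of 1 step, 0.724 to 1.96 normalized counts per read, and dividing by it gave whole reads within 0.1 for 100% of values. Ratios of 2 libraries have exact (Clopper-Pearson) conditional binomial intervals and shares have Wilson intervals, at 95%. A count of 0 allows up to 3 reads. Intervals and floors cover counting error only, and reads without molecular identifiers are not independent molecules. Ranges are the highest over the lowest value, with a pseudocount of 1 where they are counted over all genes. Levels per kilobase use the union of GENCODE M21 exons, and 2258 of 2402 symbols matched that annotation. Promoters came from RefSeq, where all 4 genes matched, and the motifs were chosen after the sequences had been seen. Named genes were the 4 members, the measured genes of the lists, the sort markers and, for each member, the 5 named genes with the highest correlation, and the text gives values for part of the listed genes. The members, lists and the setting without libraries 3 and 4 were chosen with earlier results of these data known. The recovery of reads and the ranges were checked on simulated data. Python 3.11.15, numpy 2.4.6, pandas 2.3.3, scipy 1.17.1 and matplotlib 3.10.9 were used.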

Additional observations from a re-analysis of the deposited data

How the results depend on the processing

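The ratios of highest to lowest library depended on the scaling and on libraries 3 and 4. Scaled to the table total they were 31.0 for Itga2b, 2.16 for Fermt3, 5.62 for Rap1b and 2.14 for Zyx. Under median-of-ratios scaling they were 78.7, 6.01, 19.9 and 5.18 in the same order of genes, so that Fermt3 and Zyx passed 4-fold there. Both scalings rest on the genes of the table alone, and 66.4% of the 2341 genes had a 4-fold range as deposited. Median-of-ratios scaling assumes that most genes are unchanged, which was not met here. Relative to the median library, these scalings moved the median gene of library 3 by 0.64 and -0.60 on the log2 scale. Without libraries 3 and 4 the ratios were 1.70, 1.37, 1.88 and 1.81. With 1 library left out at a time they lay between 11.9 and 48.2 for Itga2b, 2.89 and 3.68 for Fermt3, 10.2 and 12.2 for Rap1b, and 3.15 and 3.68 for Zyx.

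Genes with at least a 4-fold range numbered 1108 to 1546 with 1 library left out, beside 1555 of 2341 with all, and 443 of 2133 without libraries 3 and 4. For the lists the counts were 29 to 33, beside 33 of 46, and 6 of 43. Pseudocounts of 0.5 and 5, no filter and both other scalings gave 1449 to 1613 genes and 30 to 34 list genes. Of the 5 genes most like each member, those shared with the first choice under Spearman correlation numbered 0 for Itga2b, 0 for Fermt3, 2 for Rap1b and 0 for Zyx, and without libraries 3 and 4 they numbered 0, 0, 1 and 0. The cause was not tested. No paired analysis was possible because the rows of the table carry no sample names or replicate numbers.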

Other observations

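Any 9 values have a widest gap between neighbours, so a gap alone does not show separate groups of libraries. As deposited, it lay between libraries 4 and 9 for Itga2b (6543 and 45798 normalized counts), Fermt3 (11817 and 25004) and Rap1b (6624 and 36599). For Zyx it lay between libraries 3 and 9 (11114 and 19462). These were 1.75 times apart, beside a spread of 1.81 times over the libraries other than 3 and 4. Scaled to the table total, Zyx had 11262 in library 4, 14500 in library 3 and 16931 in library 9. Of the 11 measured HSC markers, Ly6a was 71.3 normalized counts in library 8, below 187 in library 9 and 94.2 in library 2, and Hlf was 37.7 in library 8 and 39.8 in library 9. Ndn had 804 in library 8 and 718 in library 9, and Hoxb5 195 and 112 in the same libraries, with at most 100.1 for Ndn and 11.8 for Hoxb5 in libraries 1, 2, 5, 6 and 7. Kit was 198 in library 8 and Procr 97.5, against at most 67.4 and 31.4 in the other libraries apart from 3 and 4, and these examples were chosen after their values were seen. Of 8 granulocyte and monocyte markers 4 were measured, and they had no shared pattern. Prtn3 was highest in library 3 (12248) and library 4 (11466) and Csf3r in library 4 (862), while Csf1r was highest in library 9 (82.6) and Cebpa in library 2 (41.2), both with at most 1.14 in libraries 3 and 4. Of 10 erythroid markers 4 were measured. Aqp1 was 280 in library 3, 294 in library 4 and 5422 to 8514 elsewhere, whereas Rhd (3.15), Ermap (10.5) and Add2 (2.10) were as scarce in library 8, or nearly so, as in libraries 3 and 4. Of 5 T and NK cell markers 3 were measured. Nkg7 ran from 185 in library 3 to 27162 in library 2, while Klrb1c was highest in libraries 3 and 4 (493 and 469, against at most 68.2 elsewhere), as was Lck (44.8 and 43.5, against at most 26.8). The single measured markers of B lineage, mast cells and macrophages stayed at or below 12.3, 103 and 39.8. Of 5 endothelial markers 2 were measured, with 2110 in library 4, 1213 in library 3 and 4.20 to 48.2 elsewhere, and stromal markers were not analysed here.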
